A study of Mus musculus with 3 samples.

Results

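The Gimap genes encode GTPases of immunity-associated proteins, and all 8 that were annotated on the array were examined in endothelial cells of the adult kidney cortex. They were taken by gene name, each at its probeset with the highest mean, and are 8 of the 19938 genes with a probeset of their own. Each of the 8 had exactly 1 probeset, so the measured values chose nothing, and 0 probesets shared by several genes included a Gimap gene. The 3 samples were GFP-positive cells from adult Tie2-GFP mice, which carry Tg(TIE2GFP)287Sato on a mixed background that was mainly CD-1, with sex given as unknown and no treatment. Each sample came from 1 kidney and was not pooled, and the study describes its samples as independent biological ones. The medulla was cut away and a mesh removed the glomeruli before trypsin digestion and sorting. The transgene marks cells that use the Tie2 promoter, which is endothelial but is also used by some blood cells. With 1 group there was no contrast between conditions, and the question was which Gimap genes these cells express and how alike the samples were.

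Gimap proteins share a GTP-binding domain of the AIG1 type and were first studied in lymphocytes, where several of them control survival. Loss of Gimap5 causes a shortage of lymphocytes in rats and mice. Several members sit on membranes of lysosomes, the endoplasmic reticulum or other organelles, and Gimap6 binds an Atg8 protein of the autophagy pathway. The genes form a tight cluster on mouse chromosome 6. In the RefSeq order the cluster runs Gimap8, Gimap9, Gimap4, Gimap6, Gimap7, Gimap1, Gimap5 and Gimap3, with 0 other protein-coding genes between the first and the last.

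ETS factors are known regulators of endothelial genes and can bind sites that hold GGAAG. The 250 bases before each start were searched for GGAAG or its reverse complement CTTCC, called the ETS core here. Other forms of ETS site were not searched, so a window may hold sites that are not counted or marked. RefSeq held 9 such windows for the 8 genes on build GRCm38.p6, a pair of them overlapping for Gimap8. Of these 9 windows 8 held the core, against 64.1% of 32851 windows of the same length over all genes. Gimap5 held it at 3 places, Gimap9, Gimap4, Gimap6 and Gimap1 at 2 each, and Gimap7 and Gimap3 at 1 each. For Gimap8 the upstream window held 0 and the downstream window 2. An interferon regulatory factor type motif, GAAANNGAA or its reverse complement TTCNNTTTC, was in 0 of the 9 windows and in 7.13% of all windows. A match is a description of the letters and not a bound site.

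The 4 windows shown are those of Gimap4 and Gimap6, the members that were above the test's limit also when it was doubled to a signal of 200, Gimap9, which lies next to Gimap4 and differed between samples in the same direction, and Gimap7, the member below the limit. Each is read 5′ to 3′ on the strand of the gene and ends just before the start, and capitals mark GGAAG or CTTCC only.
Gimap4, chr6:48684328-48684577, plus strand: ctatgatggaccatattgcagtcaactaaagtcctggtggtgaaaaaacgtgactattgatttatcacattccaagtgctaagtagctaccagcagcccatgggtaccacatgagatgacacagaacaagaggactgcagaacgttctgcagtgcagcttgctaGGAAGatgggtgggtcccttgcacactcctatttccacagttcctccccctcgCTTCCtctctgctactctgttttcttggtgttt
Gimap6, chr6:48708245-48708494, minus strand: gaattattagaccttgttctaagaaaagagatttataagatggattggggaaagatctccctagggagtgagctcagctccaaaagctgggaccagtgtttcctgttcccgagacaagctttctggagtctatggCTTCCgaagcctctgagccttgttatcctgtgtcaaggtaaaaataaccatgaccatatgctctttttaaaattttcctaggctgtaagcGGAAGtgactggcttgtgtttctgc
Gimap9, chr6:48675885-48676134, plus strand: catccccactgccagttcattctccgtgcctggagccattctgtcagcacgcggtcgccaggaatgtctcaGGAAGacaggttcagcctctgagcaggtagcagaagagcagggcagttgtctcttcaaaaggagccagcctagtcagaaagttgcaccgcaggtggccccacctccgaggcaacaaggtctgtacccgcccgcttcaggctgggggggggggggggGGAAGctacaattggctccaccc
Gimap7, chr6:48718371-48718620, plus strand: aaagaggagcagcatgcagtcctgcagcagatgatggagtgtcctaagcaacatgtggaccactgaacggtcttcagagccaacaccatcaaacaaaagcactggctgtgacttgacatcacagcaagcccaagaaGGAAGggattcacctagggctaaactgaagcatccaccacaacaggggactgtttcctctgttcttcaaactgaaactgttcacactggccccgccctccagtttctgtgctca

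**Figure D1:**
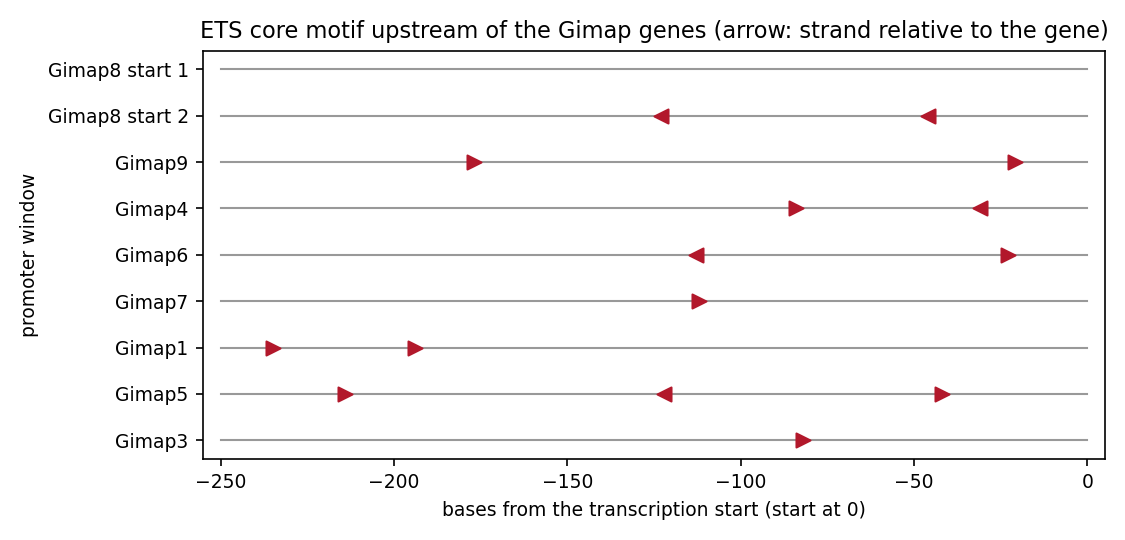
Places of the ETS core GGAAG (arrow to the right) or CTTCC (arrow to the left) in the 250 bases before the start of each Gimap gene, with distance from the start in bases on the x axis and 1 line per RefSeq window. In 8 of 9 windows there is at least 1 match, and a match lies within 50 bases of the start for Gimap8 (its second start), Gimap9, Gimap4, Gimap6 and Gimap5. Other forms of ETS site were not searched and are not shown for any gene.

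In the cortical endothelial cells 4 of the 8 Gimap genes had a mean above a signal of 100, 1 was below and 3 were neither. A signal of 100, which is 6.64 on the log2 scale, is the raw level of the study's filter on low values. The study required that raw level in 3 samples, whereas here the mean of the deposited normalized values was tested. The number need not stand for the same level on both scales. "Above" and "below" here refer to the one-sided moderated test of limma against this limit, at an adjusted p under 0.05 over all probesets. Over all genes 19.9% were above and 62.1% were below. The genes above were Gimap4, Gimap5, Gimap6 and Gimap8, and the gene below was Gimap7. Gimap1, Gimap3 and Gimap9 were neither, although each of their values exceeded 100. Without a test, 7 of the 8 reached the limit in all 3 samples, as did 28% of all genes. The median signal of the 8 genes was 225, and that of all genes was 59.

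Gimap4, which in T cells is known to speed cell death after an apoptotic signal, was measured at log2 signals of 11.47 (replicate 1), 11.55 (replicate 2) and 10.83 (replicate 3). Replicate 3 was the low sample, and all 3 lay far above the limit. On the linear scale these were signals of 2835, 3002 and 1817. The mean log2 signal was 11.28 ± 0.40 (SD, n = 3), which is 24.9 times the limit on the linear scale (adjusted p = 0.00147 from limma). The call held without each of the replicates in turn, with the highest adjusted p at 0.0101.

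Gimap6, the member that binds Gabarapl2 of the autophagy pathway, had a log2 signal of 10.80, 10.62 and 10.57 in replicates 1, 2 and 3. These samples differed by at most 0.23 on the log2 scale, or 1.17-fold. The mean was 10.67 ± 0.12 (SD, n = 3), 16.3 times the limit (adjusted p = 0.000306 from limma). At a limit of 200 only Gimap4 and Gimap6 were still above among the Gimap genes (adjusted p = 0.00387 and 0.000741 from limma).

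Gimap8 encodes the longest protein of the family, which has more than 1 GTP-binding domain. Replicates 1 and 2 both gave a log2 signal of 7.90, and replicate 3 gave 7.76. Its mean was 7.85 ± 0.08 (SD, n = 3), 2.31 times the limit (adjusted p = 0.00228 from limma). The range over the samples, 0.14, was small beside the distance of 1.21 from the limit.

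Gimap5, which is required for lymphocyte survival, gave log2 signals of 7.47 in replicate 1 and 7.22 in the other two. Its mean was 7.30 ± 0.15 (SD, n = 3), 1.58 times the limit (adjusted p = 0.0156 from limma). This call did not hold with 2 samples. Leaving out replicate 1, 2 or 3 gave adjusted p-values of 0.17, 0.103 and 0.0791.

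Gimap9, of which less is known, had a log2 signal of 8.17, 8.29 and 7.22 in replicates 1, 2 and 3. Replicate 3 was again the low sample, and the highest signal was 2.09 times the lowest. The mean was 7.89 ± 0.58 (SD, n = 3) and just missed the threshold (adjusted p = 0.0581 from limma). Without replicate 3 it was above the limit (adjusted p = 0.0154), and without replicates 1 or 2 it was not (0.182 and 0.171).

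Gimap1, which is needed for mature T and B cells, had the widest range of the 8 genes. Replicates 1, 2 and 3 gave log2 signals of 7.61, 7.12 and 8.61, so that here replicate 3 was the high sample. The highest signal was 2.8 times the lowest. Its mean, 7.78 ± 0.76 (SD, n = 3), did not pass the test (adjusted p = 0.126 from limma).

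Gimap3 and Gimap7 had the same value in all 3 samples to 5 decimals, as 40.5% of the probesets did. Gimap3, a close relative of Gimap5 and also listed under the name Gimap5 among its RefSeq synonyms, stood at a log2 signal of 6.74, or 107 on the linear scale. It lay 0.09 above the limit and was not called (adjusted p = 0.878 from limma). With the SD of 0 kept as deposited the adjusted p was 2.59e-05, so its call depends on the spread it is given. Gimap7, whose protein is known to pair with other Gimap proteins and stimulate their GTP hydrolysis, had 4.87 in each sample, a signal of 29.3. It was below the limit (adjusted p = 0.000438 from limma). Probes shared between close relatives such as Gimap3 and Gimap5 were not tested for cross-hybridization, and no level is ranked between genes because each probeset has its own response.

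**Figure D2:**
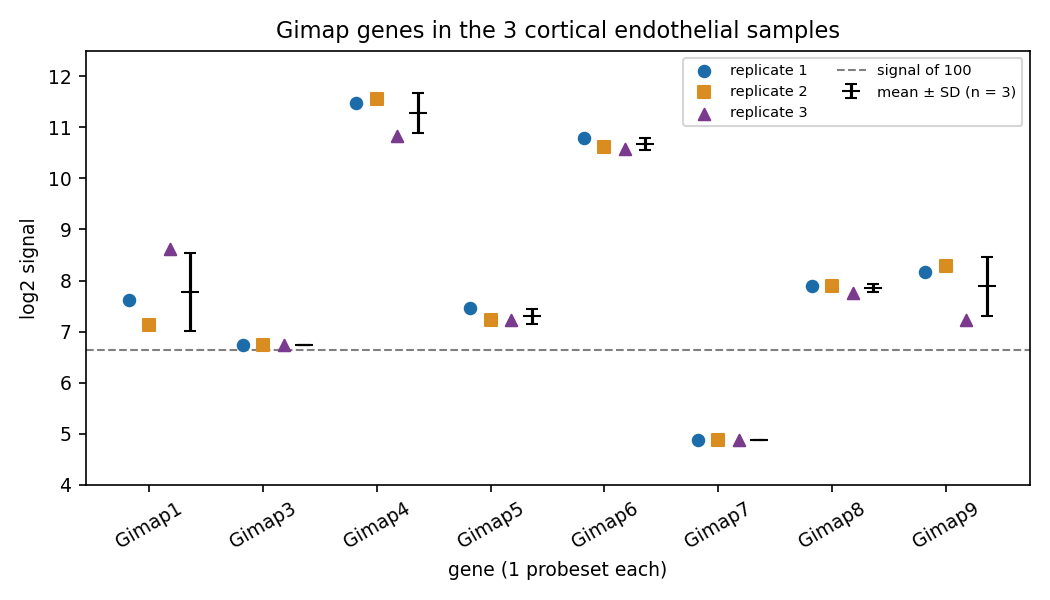
Log2 signal of the 8 Gimap genes (y axis) in replicates 1, 2 and 3, with the mean and SD of n = 3 beside the points and the signal of 100 as a dashed line. Gimap4 and Gimap6 lie far above the line in every sample, Gimap7 lies below it at 4.87, Gimap3 lies just above it at 6.74, and Gimap1 and Gimap9 are spread over 1.49 and 1.06 on the log2 scale.

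The Gimap genes deviated in different directions between the samples. Replicate 3 had the single lowest value for Gimap4, Gimap6, Gimap8 and Gimap9 and the highest for Gimap1, and replicate 2 had the lowest for Gimap1. The deviations of replicate 3 from each gene's own mean were -0.46 for Gimap4 and -0.67 for Gimap9 on the log2 scale, against 0.83 for Gimap1. Over the 6127 genes whose mean reached the limit, the 5th to 95th percentile of this deviation ran from -0.53 to 0.43 in replicate 3, and 5 of the 7 Gimap genes at that level lay within it. In replicate 2 the range was -0.40 to 0.37 and 5 of 7 lay within it, with Gimap1 at -0.66 and Gimap9 at 0.39 outside, and in replicate 1 all 7 lay within. Of the 6127 genes 27.5% had 3 equal values, and their deviations of 0 are included in these ranges, which makes them narrower. The SD was compared over the other 4443, where its median was 0.19. The SD of Gimap1 was larger than that of 94.7% of them, that of Gimap9 than 88.9% and that of Gimap4 than 77.4%. The SDs of Gimap5, Gimap6 and Gimap8 lay below the median, larger than those of 41.5%, 35.7% and 25.5% of genes. With 3 samples of 1 group these differences have no test.

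Another family of immunity GTPases was examined in the same samples. Of 14 listed interferon-inducible GTPases, which defend cells against intracellular pathogens, 8 had a probeset of their own. All 8 were lowest in replicate 3 and highest in replicate 2. Of all 19938 genes, 2523 were lowest in replicate 3 and 2077 were highest in replicate 2. Gbp4, a guanylate-binding protein gene, had a log2 signal of 11.26, 11.50 and 7.96 in replicates 1, 2 and 3. Iigp1, a gene of the immunity-related GTPase family, had 11.27, 11.39 and 9.27. The range over the samples was narrowest for Gbp9, at 1.01 on the log2 scale, which is less than that of Gimap1 or Gimap9, and was 2.10 or more for the other interferon-inducible genes. The median deviation of these 8 genes was 0.59, 0.83 and -1.42 in replicates 1, 2 and 3, while that of the 8 Gimap genes, whose members deviated both ways, was 0.09, 0.00 and -0.09. By the test 3 of the 8 interferon-inducible genes, Iigp1, Gbp7 and Gbp9, were above a signal of 100, against 19.9% of all genes. The test called 0 below (0 at an unadjusted p under 0.05), against 62.1% of all genes, and the median signal was 613. Without replicate 3 all 8 were above, and without replicate 1 or 2 only 1 was. The share of all genes above in these fits was not computed. Of 16 endothelial genes 14, 14 and 15 were above without replicates 1, 2 and 3, against 16 with all samples. These genes include close copies whose probes may overlap, and the difference between the families was not tested.

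**Figure D3:**
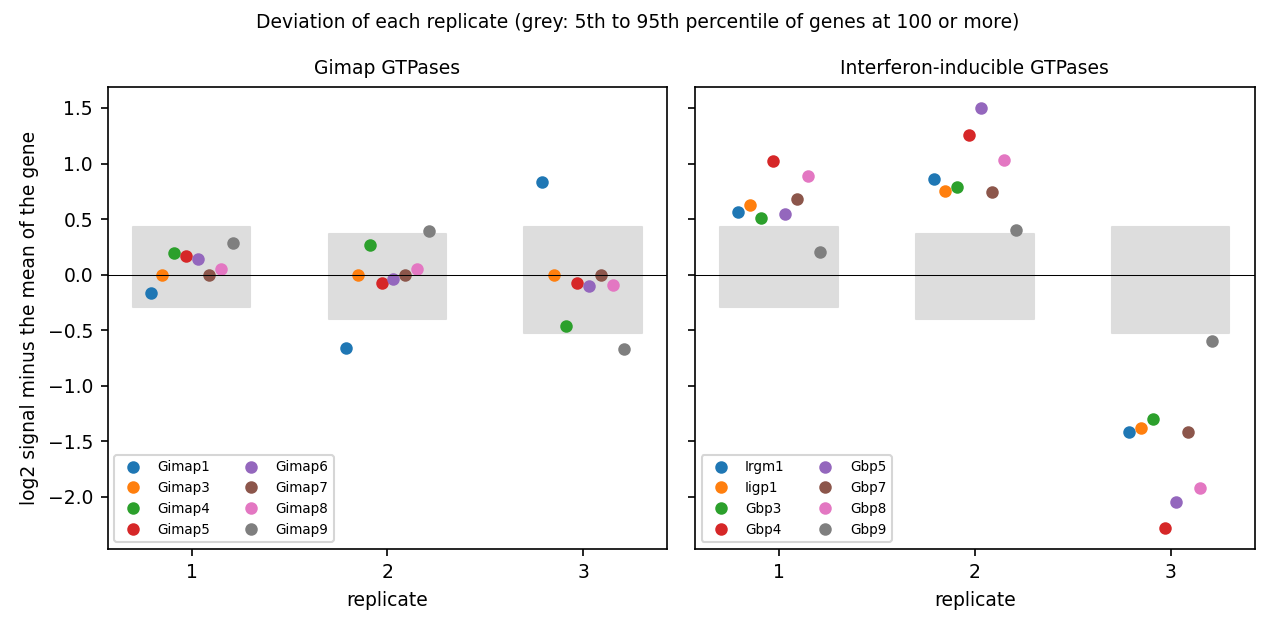
Log2 signal of each replicate minus the mean of the gene (y axis) for the Gimap genes (left) and the interferon-inducible GTPases (right), 1 colour per gene, with grey bars for the 5th to 95th percentile of the 6127 genes whose mean reached a signal of 100. The bars include genes with 3 equal values, which makes them narrower. In replicate 3 Gimap9 lies at -0.67 and Gimap1 at 0.83 outside the bar, and all 8 interferon-inducible GTPases lie below it.

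The genes that flank the cluster were taken as the 5 nearest protein-coding genes on each side, and all 10 had a probeset of their own. Of these, 3 were above a signal of 100, 3 were below and 4 were neither, where 19.9% of all genes were above and 62.1% below. Tmem176b and Tmem176a, a pair of related membrane protein genes next to Gimap3, were above (adjusted p = 0.00085 and 0.00128 from limma). Over replicates 1, 2 and 3 the log2 signal was 9.13, 8.97 and 8.89 for Tmem176b and 8.62, 8.43 and 8.43 for Tmem176a. Rarres2, the gene of the chemoattractant chemerin, was the other one above. It had 8.35, 8.49 and 9.67 in replicates 1, 2 and 3, highest in replicate 3 as Gimap1 was. Lrrc61, Repin1, Zfp775 and Gm7932 were neither, with means between 6.34 and 6.78. The genes below were Gm5111, Aoc1 and Doxl1, at 4.19, 4.54 and 4.72 in each sample. Within the cluster Gimap7, which lies between Gimap6 and Gimap1, was the gene below the limit.

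**Figure D4:**
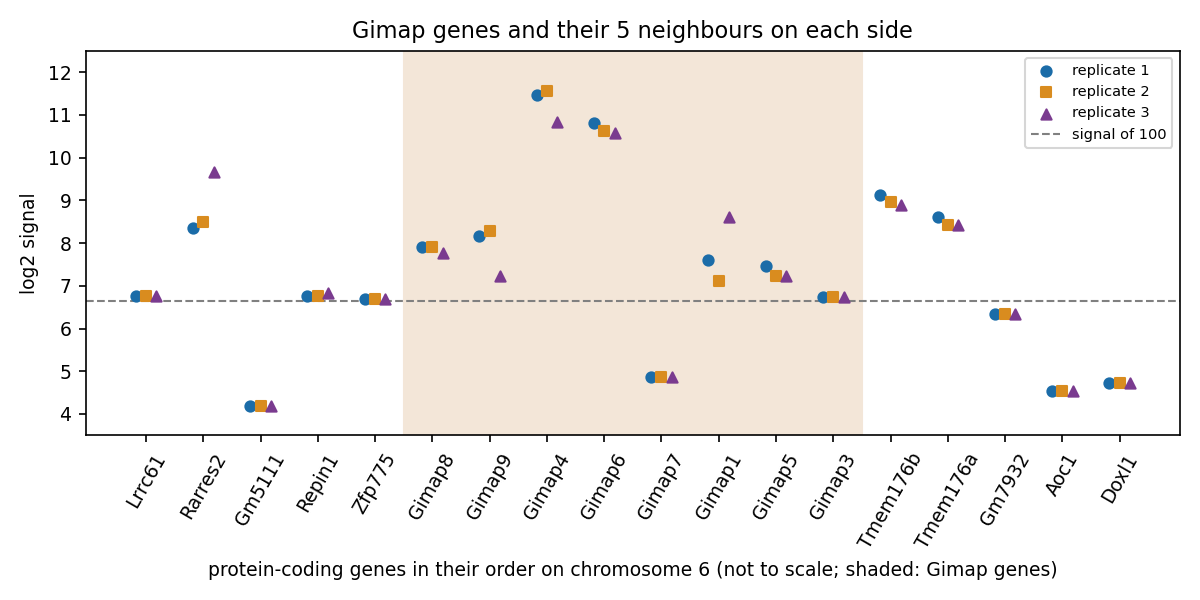
Log2 signal in replicates 1, 2 and 3 (y axis) of the Gimap genes (shaded) and their 5 protein-coding neighbours on each side, in their order on chromosome 6 and not to scale. Gimap8, Gimap4, Gimap6 and Gimap5 are above the dashed line of a signal of 100 by the test, and Gimap7, between Gimap6 and Gimap1, is below it.

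Of 14 listed genes whose products are known or reported to act with Gimap proteins, 12 had a probeset of their own. Of these 12, 8 were above a signal of 100, 1 was below and 3 were neither, where 19.9% of all genes were above and 62.1% below. Gabarapl2, Map1lc3b and Calm2 had 2 probesets each and are given at the one with the higher mean. With the mean over the probesets of a gene, 8 of the 12 were above as well. Among the Atg8 proteins Gabarapl2, the partner of Gimap6, had a log2 signal of 8.82, 7.95 and 8.03 in replicates 1, 2 and 3. Replicate 1 was the high sample, and the mean of 8.27 ± 0.48 (SD, n = 3) was above the limit (adjusted p = 0.0212 from limma). Its relatives Gabarapl1, Gabarap and Map1lc3b were also above, at mean log2 signals of 8.19, 11.11 and 10.31. Among the regulators of apoptosis Bcl2l1, the gene of the survival protein Bcl-xL, was above, with a mean that corresponds to a linear signal of 257 (adjusted p = 0.00109 from limma). Bcl2l11, the gene of the death-promoting protein Bim, was below at 5.63 in each sample. Bcl2, the founding survival gene of that family, was neither at 6.49 ± 0.20, and so were the death-promoting genes Bad at 6.63 and Bak1 at 6.53 ± 0.38. Calm2 and Calm3, calmodulin genes, were above at 12.58 ± 0.11 and 9.41 ± 0.11, and so was the kinase gene Gsk3b at 8.56 in each sample.

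Because Gimap genes are also used by lymphocytes, markers of blood cells were examined in the same samples. In bulk samples fewer cells of a type and less RNA per cell cannot be told apart. All 13 measured T cell genes were below a signal of 100 and 0 were above (0 at an unadjusted p under 0.05). Among all genes 62.1% were below and 19.9% above. Cd3e, Cd3d and Cd3g, genes of the T cell receptor complex, stood at log2 signals of 5.88, 4.36 and 3.81, the same in all 3 samples. The summed linear signal of the T cell list was 443, 445 and 447 in replicates 1, 2 and 3. All 9 measured B cell genes were below too, among them Cd79a at 3.61 ± 0.11 and Cd79b at 5.31, with sums from 289 to 296. In 10 of the 13 T cell genes and 5 of the 9 B cell genes the 3 values were equal, so these sums could vary little. The part of lymphocytes in the Gimap values was not tested.

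Of 9 measured genes shared by leukocytes 8 were below a signal of 100, where 62.1% of all genes were. Ptprc, the gene of CD45 on nearly all white blood cells, stood at a log2 signal of 5.12 in all 3 samples. The gene above was Arhgdib, at 7.72, 8.65 and 8.77 in replicates 1, 2 and 3, and it lost the call without replicate 2 or 3. Of 12 macrophage and monocyte genes 11 were below, and Cx3cr1 was neither at 6.44 ± 0.12. All 4 measured platelet genes were below.

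Of 8 natural killer cell genes 5 were below a signal of 100, 3 (Nkg7, Gzma and Prf1) were neither and 0 were above (0 at an unadjusted p under 0.05). The share below, 62.5%, was near the 62.1% of all genes. Nkg7, a gene of cytotoxic granules, had a log2 signal of 4.84, 5.03 and 7.04 in replicates 1, 2 and 3, and the granzyme gene Gzma had 5.30, 5.99 and 6.70. Both passed the limit only in replicate 3, the sample in which Gimap1 was highest. Replicate 3 was also the single highest sample for 3039 of all 19938 genes, against 2196 and 2077 for replicates 1 and 2. The summed signal of this list was 215, 244 and 388. The defining receptor genes Ncr1 and Klrb1c were below the limit, at 4.16 ± 0.12 and 3.40 ± 0.01. The part of these cells in the Gimap1 signal was not tested.

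The endothelial label was checked against 16 marker genes. All 16 endothelial genes were above a signal of 100, where 19.9% of all genes were. The junction genes Pecam1 and Cdh5 had a mean log2 signal of 10.07 ± 0.02 and 10.62, and Tek, the Tie2 gene itself, had 10.41 ± 0.16 (SD, n = 3). The VEGF receptor gene Kdr had 9.72, 9.70 and 8.79 in replicates 1, 2 and 3. It was lowest in replicate 3, as were 8 of the 16 endothelial genes and 4 of the 8 Gimap genes. Over all 19938 genes replicate 3 was also the most frequent low sample, with 1926, 2056 and 2523 genes lowest in replicates 1, 2 and 3. It was the most frequent high sample as well, with 2196, 2077 and 3039 genes highest in replicates 1, 2 and 3. The summed endothelial signal was 14369, 14647 and 12246, and the summed Gimap signal was 5657, 5556 and 4379. Gimap4 alone made up 2835, 3002 and 1817 of the Gimap sum, and the median deviation in replicate 3 was -0.09 for the Gimap genes and -0.03 for the endothelial genes. Genes of the proximal tubule were present as well, 8 of 9 above the limit and Slc5a2 neither, with sums of 14786, 13037 and 13024. The median signal was 740 for the tubule genes and 515 for the endothelial genes. These medians do not compare the amounts of the cell types, because each probeset has its own response. The paper reports that its cortical endothelial cells held a minor contamination with a proximal tubule profile. The part of tubule cells and of the endothelial content in the Gimap values was not tested.

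**Figure D5:**
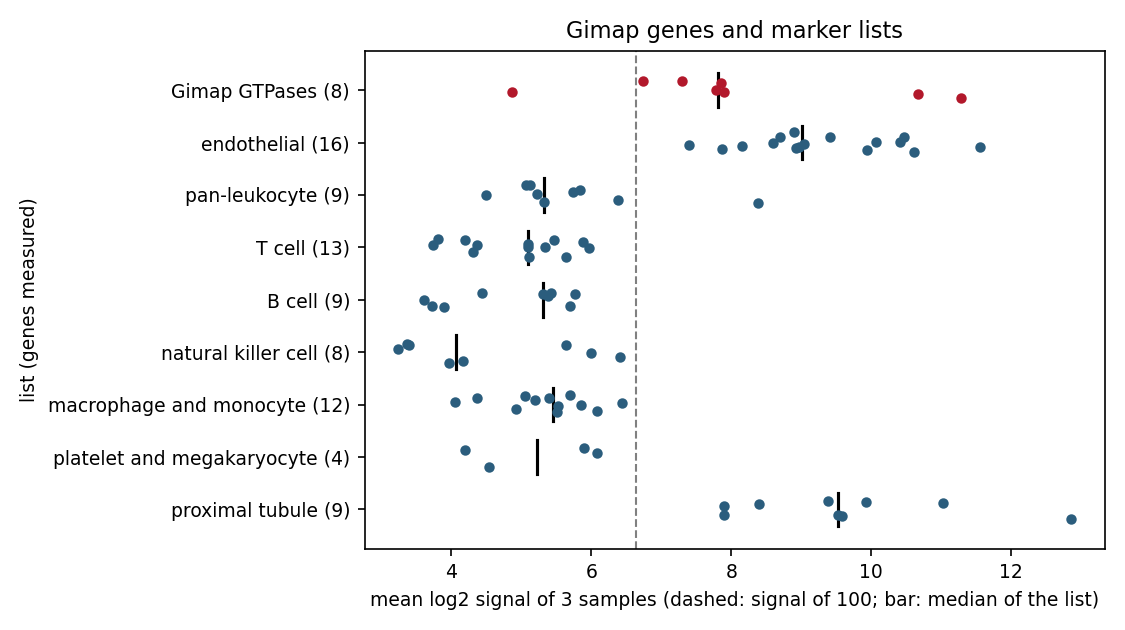
Mean log2 signal over the 3 samples (x axis) of the Gimap genes (red) and of each measured gene of the marker lists (blue), with the median of each list as a bar and the signal of 100 as a dashed line. All endothelial and proximal tubule genes and 7 of 8 Gimap genes lie to the right of the line, while every T cell, B cell, natural killer cell, macrophage and platelet gene lies to the left. Among the genes shared by leukocytes (pan-leukocyte) Arhgdib lies to the right at 8.38 and the others to the left.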

How the data were processed

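RNA from each sorted sample was amplified in a single round with the WT-Ovation Pico system and hybridized to Affymetrix Mouse Gene 1.0 ST arrays. The authors deposited log2 signals per probeset, 1 column per sample, already summarised and normalized between arrays. Their paper names RMA in GeneSpring GX, and the submitters' processing notes name Affymetrix Expression Console. The Expression Console version and which arrays entered the normalization are not stated in the sources used here. The table held 35557 probesets and 0 missing values, with column medians of 5.66 to 5.70. Of the probesets, 21789 were assigned to 1 gene, 1621 to several and 12147 to none by the platform's annotation, and 21698 matched a RefSeq gene by ID. Arrays have no read depth, so precision is limited by having 3 of them.

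The distance of each log2 value from the log2 of 100 was fitted for all probesets by its mean alone, using limma (version 3.58.1, R 4.3.3) and allowing a mean-variance trend. Means above and below the limit were tested one-sided, and p-values were adjusted over the whole table by Benjamini-Hochberg and called under 0.05. A probeset with 3 equal values was given the median variance of the others in its bin, of 20 bins of mean. Its p-values therefore rest on that borrowed variance, and those of the other probesets on the spread between these samples, moderated by the prior. Where only a pair of samples was equal, the measured spread was kept. Among the Gimap genes this holds for Gimap5 (replicates 2 and 3) and Gimap8 (replicates 1 and 2), whose SDs and p-values may be too small for that reason. Other named genes also had a pair of values that were equal as rounded, such as Tmem176a (replicates 2 and 3), Pecam1 and Bcl2l1 (replicates 1 and 2). The same limit may hold for them. The prior was estimated on probesets with a measured spread, a choice made after values were seen, and had 0.937 degrees of freedom beside 2 residual ones. The fit was tested on simulated data that held no equal values. That test therefore did not cover the variance given to probesets with 3 equal values. Promoter windows came from RefSeq (GRCm38.p6), and were read with Python 3.11.15 and pandas 2.3.3.

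The 10 lists held 115 genes, of which 100 had a probeset of their own, and cover markers of cell types, interferon-inducible GTPases and genes known to act with Gimap proteins. Named genes are all 8 Gimap genes, those partners, neighbours of the cluster, at most 4 from each marker list, by list order, and the genes behind any count of up to 5. Gbp4, Iigp1, Nkg7, Gzma and the markers outside that rule were named after their values were seen. The members, lists, tests and motifs were chosen with earlier results of these data known. Alternatives were limits of 50 and 200, a signal of 100 in every sample with no test, the SD of 0 kept, no trend, quantile normalization, equal column medians, the mean over the probesets of a gene, a filter at a mean log2 of 5, leaving out each replicate, and, added after seeing the data, a prior estimated on all probesets.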

Additional observations from a re-analysis of the deposited data

How the results depend on the processing

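The calls of Gimap4, Gimap6 and Gimap8 above a signal of 100 held under every alternative with this limit. The number of Gimap genes above was 7 with a limit of 50, 2 with a limit of 200 and 7 for a signal of 100 or more in every sample with no test. Of all genes 28% reached 100 in every sample. The share of all genes above was not computed for limits of 50 and 200, and the median signal of all genes was 59. The number of Gimap genes above ranged from 3 to 4 without 1 replicate, and was 4 or 5 in the other settings. Gimap9 was the added gene with quantile normalization (adjusted p = 0.0453 from limma), with equal column medians (0.0491), with probesets under a mean log2 of 5 left out (0.0388) and with the prior estimated on all probesets, an alternative chosen after seeing the data. Gimap3 was the added gene with the SD of 0 kept. The number below 100 was 1 in the main setting and 1 without any 1 replicate, 3 with a limit of 200, and 0 with probesets under a mean log2 of 5 left out, since Gimap7 was then not tested. With a limit of 200 Gimap5 turned from above to below (the adjusted p of being above was 1 in limma). Of 95 single-gene values under alternatives, 80 kept their call.

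With a limit of 50 the count above was 3 for genes shared by leukocytes, 1 for T cell, 1 for natural killer cell, 3 for macrophage and monocyte, 1 for platelet and 7 for interferon-inducible GTPase genes. With a limit of 200 it was 0 for genes shared by leukocytes and 1 for interferon-inducible GTPases. With the SD of 0 kept it was 0 for genes shared by leukocytes. Without 1 replicate it ranged from 0 to 1 for genes shared by leukocytes and from 1 to 8 for interferon-inducible GTPases, of which 6 reached 100 in all 3 samples with no test. The shares of all genes above with limits of 50 and 200, with the SD of 0 kept and without 1 replicate were not computed. The cause of these changes was not tested. No paired analysis was possible because the samples form 1 group.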
